A study of Mus musculus with 24 samples.

Results

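Gene expression was compared between the livers of mice fed a cafeteria diet and those of mice kept on pellets. The members of the comparison are the arrays whose titles name the human cafeteria diet and the pellet diet, 12 of the 24 mice of the series, with 6 mice per diet and 1 array per mouse. In each diet 3 mice were processed in batch 1 and 3 in batch 2. All mice were NMR1 females, called genetically identical in the series description, that were 8 weeks old when the experiment began and that stayed on their diet for 2 weeks with food freely available. Pellet mice went on eating the feed they had been raised on, so they are also the group whose diet did not change. Cafeteria mice were given cooked meals of the kind served to the staff of the research institute. Beside these stand 6 mice that ate only food from a fast food chain (FastFood) and 6 that ate the fruit, vegetables and yogurt of captive chimpanzees (Chimpanzee). Littermates were spread over the diets, but the labels do not say which mice shared a litter, and neither the amount each mouse ate nor the hour of its death was among the information used.

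The liver turns surplus carbohydrate into fatty acids, exports lipid, and burns fatty acids when they arrive in excess or when feeding stops. Enzymes of fatty acid synthesis are under the control of insulin and of the factors SREBP-1c and ChREBP, those of cholesterol synthesis answer to SREBP-2, and those of peroxisomal and omega oxidation answer to the fatty acid receptor PPARalpha. The liver also secretes much of the plasma protein, which is folded in the endoplasmic reticulum, and it keeps a circadian clock that is set in large part by the hours of feeding.

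Values were log2 expression values, on which a difference of 1 is a 2-fold change, and the deposited values ran from 1.9 to 13.01. Correlations among the 12 arrays lay between 0.9255 and 0.9939. The 90th percentile of an array, a measure of its signal range, was 6.27 ± 0.34 (SD, n = 6) in cafeteria and 6.32 ± 0.23 in pellet mice (exact permutation test within batches, two-sided, p = 0.69), and cafeteria batch 2 replicate 3 had the lowest, at 5.67. The difference between 3' and 5' probe sets of beta-actin, which grows as RNA degrades, was 0.91 ± 0.05 in cafeteria and 0.75 ± 0.14 in pellet mice (exact p = 0.055, adjusted over 3 measures 0.165), where the smallest p these batches allow is 0.005. That of pyruvate carboxylase was 3.42 ± 0.36 and 3.12 ± 0.24 (exact p = 0.15, adjusted 0.225). The 8 hepatocyte markers measured had a mean level of 11.71 to 11.98 in the cafeteria and of 11.67 to 11.92 in the pellet mice, far above the 90th percentile of any of these arrays.

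Of 13385 genes tested, 643 (4.8%) differed between the 2 diets at an adjusted p of 0.05 in limma (Benjamini-Hochberg adjustment over all genes tested). In what follows a mean of 6 mice, written as cafeteria against pellet, carries its SD, and a difference, cafeteria minus pellet on the log2 scale, carries the SE of the fit. Expression rose in 256 of them (1.91% of genes tested) and fell in 387 (2.89%). These shares, and the 4.8% for both directions, are the background for the counts in gene lists below. The lists were chosen with earlier results of these data known, which can raise their shares. A share above the background is therefore a description and no test of a list. The median absolute difference of the 643 genes was 0.59, and it was at least 1 in 102 of them, 33 higher and 69 lower. Every one of the 643 had the same sign in batch 1 and in batch 2. The fitted difference is the mean of the differences in the 2 batches, so a call favours a shared sign, which is no separate replication. In 204 of the 643 (31.7%) the 6 cafeteria values did not overlap with the 6 pellet values, against 225 (1.68%) of the genes tested. The median over all genes was -0.01. Of all calls 39.8% were higher, a share that moved when 1 mouse was left out. The extremes were 55.8% (406 higher, 321 lower) without cafeteria batch 2 replicate 3 and 27.8% (235 higher, 609 lower) without cafeteria batch 2 replicate 1. Among pellet mice the share was 46.5% without batch 2 replicate 3 and 33.7% without batch 1 replicate 2. The count was 416 with the beta-actin difference as a covariate, 388 of these being among the 643. Batch 1 alone gave 451 calls and batch 2 alone 8.

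**Figure D1:**
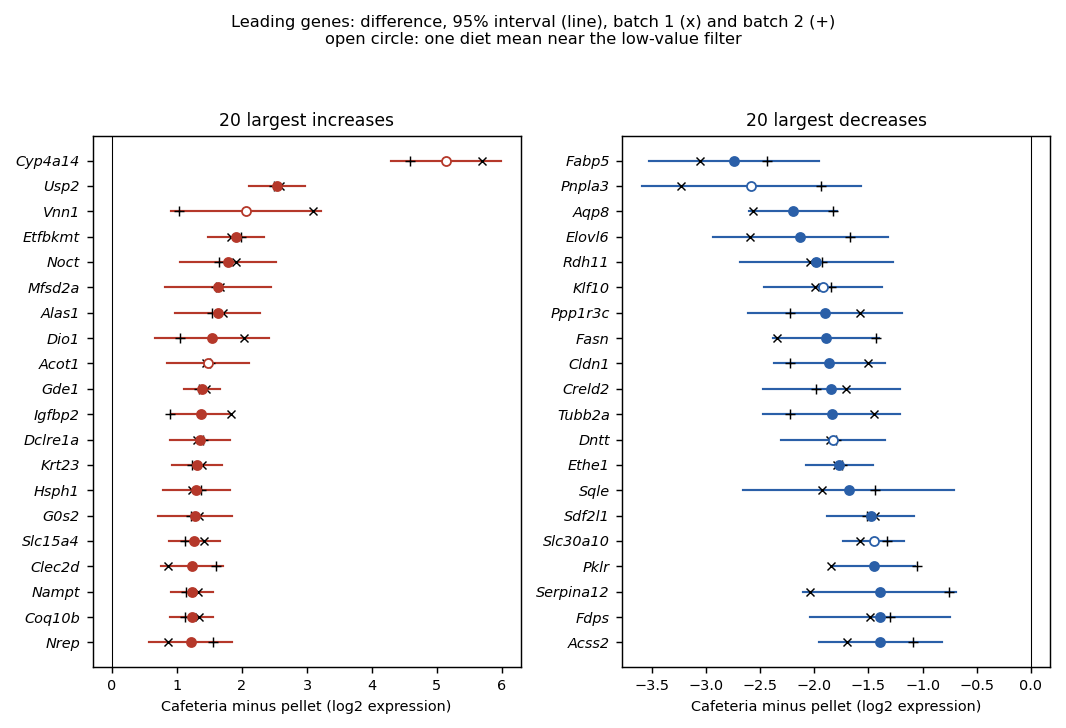
Difference between cafeteria and pellet mice (log2 expression, x axis) for the 20 genes with the largest increase (left) and the 20 with the largest decrease (right) among the calls, with the 95% interval of the fit as a line. Crosses (x) give batch 1 and plus signs batch 2, and an open circle marks a gene with a diet mean within 1 of the low-value filter. The same sign in both batches was a condition for choosing the 40 genes. Cyp4a14, at 5.14, stands apart from the other increases.

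Many genes of fatty acid oxidation rose. Among 23 measured genes of peroxisomal and omega oxidation, 12 rose and 0 fell (52.2% called), and their median difference was 0.39, at 0.38 in batch 1 and 0.41 in batch 2. The largest increase of all 13385 genes was that of Cyp4a14, a cytochrome P450 that hydroxylates fatty acids at their far end and a standard target of PPARalpha. Its expression had a median of 8.42 in cafeteria mice (lowest 7.26, highest 9.37) and of 3.21 in pellet mice (lowest 2.88, highest 4.01). The groups were far apart, with every pellet mouse within 1 of 3.147, the median of all values on the arrays, which also served as the filter on low values. The difference was 5.14 ± 0.41 (SE; adjusted p = 8.35e-08), to which no fold is given because the pellet level lay near the filter, and it was 5.69 in batch 1 and 4.59 in batch 2.

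The other members of this group changed less. Pex11a, which makes peroxisomes divide, lay between 7.31 and 8.22 under cafeteria food (median 7.59) and between 6.33 and 6.81 on pellets (median 6.6), again without overlap (1.11 ± 0.12, adjusted p = 3.19e-06). Eci2, an isomerase needed to oxidize unsaturated fatty acids, was at 8.95 ± 0.23 against 8.08 ± 0.19 (0.87 ± 0.10, adjusted p = 1.22e-05). The thiolase Acaa1b was already abundant and was at 11.58 ± 0.14 against 10.98 ± 0.15 (0.60 ± 0.10, adjusted p = 0.000633). Slc27a2, which imports and activates very long fatty acids, and Acot12 and Acot3, which release fatty acids or acetate from coenzyme A, rose by 0.50, 0.51 and 0.88. Vnn1, a pantetheinase that recycles the vitamin part of coenzyme A, rose by 2.06 ± 0.56 (adjusted p = 0.0306), but its increase was 3.09 in batch 1 and 1.03 in batch 2, and the call was lost when any 1 of 7 of the 12 mice was left out. Ehhadh, the bifunctional enzyme of the peroxisome, was not called (0.33 ± 0.16, adjusted p = 0.306), nor was Abcd2, a carrier of very long acyl groups (-0.48 ± 0.27, adjusted p = 0.455).

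Of 25 genes of mitochondrial oxidation, 8 rose and 1 fell, with a median difference of 0.30 (0.36 and 0.31 in batches 1 and 2). Cpt1a, which loads fatty acids onto carnitine and limits their entry into mitochondria, ran from 9.22 to 9.87 (median 9.78) in the 6 cafeteria mice and from 8.37 to 9.13 (median 8.80) in the 6 pellet mice, and the groups did not overlap (0.89 ± 0.10, adjusted p = 8.44e-06). Its lowest cafeteria value was that of batch 2 replicate 3. Slc22a5, the carnitine importer of the plasma membrane, rose by 1.09 ± 0.20 and the carnitine-acylcarnitine carrier Slc25a20 by 0.52 ± 0.13. Acot1, a cytosolic thioesterase, rose by 1.48 ± 0.30 from a low level, and the medium-chain dehydrogenase Acadm by 0.43 ± 0.09. The 1 member that fell was Acsl5, an acyl-CoA synthetase, which has also been described as a target of SREBP-1c (-0.75 ± 0.14, adjusted p = 0.00167). Enzymes of the inner pathway such as Acadvl (0.18 ± 0.09), Hadha (0.16 ± 0.11) and Etfdh (0.05 ± 0.12) were not called. The count of members that rose was 13 without cafeteria batch 2 replicate 3 and 15 without the 4 arrays of lowest range. Of 5 measured genes of ketone handling (20% called, against 4.8% of all genes tested) 0 rose and 1 fell, the lactate and ketone carrier Slc16a1 (-0.90 ± 0.20, adjusted p = 0.00665).

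**Figure D2:**
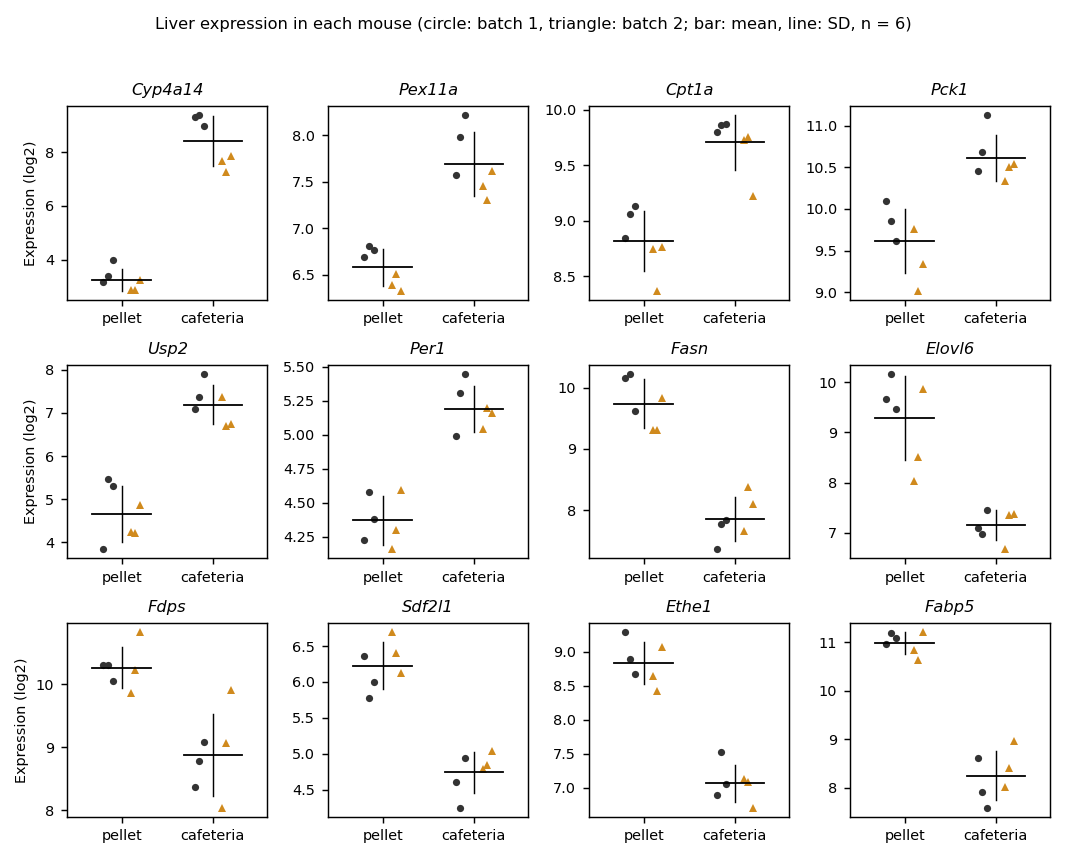
Log2 expression (y axis) of 12 genes in each pellet and cafeteria mouse (x axis), with circles for batch 1, triangles for batch 2, a bar for the mean and a line for the SD of 6 mice. The diets do not overlap in 11 of the panels, while in Fdps the highest cafeteria mouse (9.92) lies above the lowest pellet mouse (9.86).

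Many genes of fatty acid synthesis fell. Of 22 measured members of the list of enzymes and regulators, 10 fell and 1 rose, and the median difference was -0.42 (-0.53 in batch 1, -0.39 in batch 2). The enzymes that fell form the route from citrate and acetate to long-chain fatty acids. Acly, which makes acetyl-CoA from citrate, was at 9.02 ± 0.38 against 10.29 ± 0.40 (-1.27 ± 0.24, adjusted p = 0.00184), and Acss2, which makes it from acetate, at 8.73 ± 0.68 against 10.12 ± 0.41 (-1.39 ± 0.27, adjusted p = 0.00261). Acaca, the cytosolic acetyl-CoA carboxylase, changed by -0.96 ± 0.20, and Acacb, the form at the mitochondrial surface, by -1.05 ± 0.27.

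The synthase and the first elongase changed most. Fasn, the fatty acid synthase, had a median of 7.80 in cafeteria mice (lowest 7.36, highest 8.38) and of 9.72 in pellet mice (lowest 9.31, highest 10.23). No cafeteria mouse reached the lowest pellet mouse, and the difference was -1.89 ± 0.24 (adjusted p = 2.30e-05), or 3.71-fold, with -2.35 in batch 1 and -1.43 in batch 2. Elovl6, which elongates palmitate to stearate, lay between 6.67 and 7.45 under cafeteria food (median 7.22) and between 8.03 and 10.17 on pellets (median 9.57) (-2.13 ± 0.39, adjusted p = 0.00133). Elovl1, an elongase of longer chains, fell by 1.04 ± 0.19. The malic enzyme Me1, a source of NADPH, was at -1.07 ± 0.25, and Pklr, the pyruvate kinase of the liver and a standard ChREBP target, at -1.45 ± 0.18.

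Most regulators of the pathway were not called. Srebf1, which encodes SREBP-1, differed by -0.08 ± 0.16 and Mlxipl, which encodes ChREBP, by -0.16 ± 0.13 (adjusted p = 0.919 and 0.668). Thrsp, a lipogenic protein of the liver, was at -0.04 ± 0.14, and the desaturase Scd1 at -0.53 ± 0.18 (adjusted p = 0.105). Insig2, which holds SREBP precursors in the endoplasmic reticulum, fell by 1.27 ± 0.19 (adjusted p = 0.000145), and all 3 of its probe sets fell by 1.13 or more. The 1 member that rose was Elovl3, an elongase of saturated very long chains, from a low level (0.89 ± 0.19, adjusted p = 0.00663).

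Genes of cholesterol synthesis and uptake had lower values as well, although fewer of them passed the test. All 20 measured members had a negative difference, from -1.68 to -0.18 with a median of -0.70 (-0.80 and -0.56 in batches 1 and 2), and 7 of them fell at the adjusted threshold. These 7 act at early, middle and late steps of the route. Hmgcs1, which makes the precursor of mevalonate, was at 10.01 ± 0.55 against 11.08 ± 0.21 (-1.08 ± 0.29, adjusted p = 0.0286), the mevalonate enzymes Pmvk and Mvd at -1.26 ± 0.29 and -1.25 ± 0.21, and Fdps, the farnesyl diphosphate synthase, at -1.39 ± 0.31 (adjusted p = 0.00828). Sqle, the squalene epoxidase, ran from 5.81 to 7.40 (median 6.15) in the 6 cafeteria mice and from 7.61 to 8.37 (median 8.15) in the 6 pellet mice. The groups did not overlap, but the spread was large (-1.68 ± 0.47, adjusted p = 0.0381), and the call was lost when any 1 of 9 of the 12 mice was left out. Lss and Sc5d, which close the ring and introduce its late double bond, fell by 0.95 ± 0.21 and 0.80 ± 0.22. A second probe set of Fdps differed by only -0.08 and one of Lss by -0.03, whereas the 3 other probe sets of Hmgcs1 fell by 1.00 to 1.25.

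Several members of this list missed the threshold by a little or had a wide error, among them Dhcr7, the last enzyme of the route (-0.80 ± 0.24, adjusted p = 0.0521), Cyp51 (-0.89 ± 0.40, adjusted p = 0.274) and Idi1 (-0.60 ± 0.43, adjusted p = 0.612). Srebf2, which encodes SREBP-2, was at -0.18 ± 0.12. The number of members that fell was 4 without any 1 of cafeteria batch 1 replicates 1 and 2, cafeteria batch 2 replicate 1, pellet batch 1 replicates 1 and 3 and pellet batch 2 replicate 3, 12 without the 4 arrays of lowest range, and 4 with the beta-actin difference as a covariate. Hmgcs1 was the only one of 16 members with a promoter entry to hold the letters TCACNCCAC, a form of the sterol regulatory element bound by SREBP proteins, within 250 bases before a gene start on either strand (1.31% of the genes tested that have an entry hold it). That stretch is shown because it is the textbook site type of the pathway, with the match in capitals, from RefSeq on build GRCm38.p6.
Hmgcs1, chr13:119690189-119690247, + strand: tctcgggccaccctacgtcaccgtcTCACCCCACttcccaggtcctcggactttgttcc
The match lies 129 bases before the start. It is a match of letters, and nothing about binding in these livers was measured. In the fatty acid synthesis list 1 of 18 members with an entry held the same letters, Mlxipl, which was not called. Of the 10 members of that list that fell, 0 held them.

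Genes of triglyceride assembly and storage moved in both directions. Of 13 assembly genes 3 rose and 2 fell. The first step, the transfer of an acyl group to glycerol phosphate, was lower for the mitochondrial enzyme Gpam (-0.90 ± 0.15, adjusted p = 0.000381) and higher for Gpat4 of the endoplasmic reticulum (0.85 ± 0.11, adjusted p = 2.28e-05). Lpin2, a phosphatidate phosphatase, rose by 0.80 ± 0.14 and Dgat2, which adds the last acyl chain, by 0.34 ± 0.10, while Agpat2 fell by 0.40 ± 0.11. A second probe set of Gpat4 differed by only 0.16 (adjusted p = 0.315 over all probe sets), while that of Gpam fell by 1.44. The calls of Dgat2 and Agpat2 were lost when any 1 of 9 and any 1 of 5 mice was left out.

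Among 18 genes of lipid droplets and lipolysis 3 rose and 3 fell. Pnpla3, a lipase-like protein of lipid droplets and a known target of SREBP-1c and ChREBP, had a median of 3.75 in cafeteria mice (lowest 3.23, highest 4.13) and of 6.30 in pellet mice (lowest 4.84, highest 6.96). It was close to the filter level in the cafeteria mice and well above it in all pellet mice (-2.58 ± 0.49, adjusted p = 0.00178). G0s2, the inhibitor of the triglyceride lipase Pnpla2, was at 7.82 ± 0.63 against 6.54 ± 0.44 (1.28 ± 0.28, adjusted p = 0.00582), and Pnpla2 itself at 0.33 ± 0.14 (adjusted p = 0.265). Plin2, the main droplet coat of the liver, was not called (-0.16 ± 0.14, adjusted p = 0.726), Plin3 fell by 0.66 ± 0.11, and Fitm2 and Hsd17b11, proteins of droplet formation and of the droplet surface, rose by 0.68 and 0.67.

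In the list of lipoproteins and fatty acid uptake (14.8% called, against 4.8% of all genes tested) 3 of 27 members rose and 1 fell. That 1 was the largest decrease of all genes tested. Fabp5, a fatty acid binding protein better known from skin and fat, lay between 7.58 and 8.96 under cafeteria food (median 8.21) and between 10.63 and 11.21 on pellets (median 11.03), which is a difference of -2.74 ± 0.38 (adjusted p = 5.52e-05), and a second probe set fell by 3.46. Mfsd2a, a carrier of lysophosphatidylcholine, rose by 1.63 ± 0.39, Angptl4, an inhibitor of lipoprotein lipase and a PPAR target, by 1.07 ± 0.22, and Apoa5 by 0.42 ± 0.10. Angptl8 (-1.19 ± 0.38, adjusted p = 0.0725) and the fatty acid carrier Cd36 (0.88 ± 0.27, adjusted p = 0.0662) had larger differences than Apoa5 and were not called. The main apolipoproteins Apoa1 (0.00 ± 0.08) and Apoc3 (0.05 ± 0.09) and the liver fatty acid binding protein Fabp1 (0.01 ± 0.08) were not called either.

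**Figure D3:**
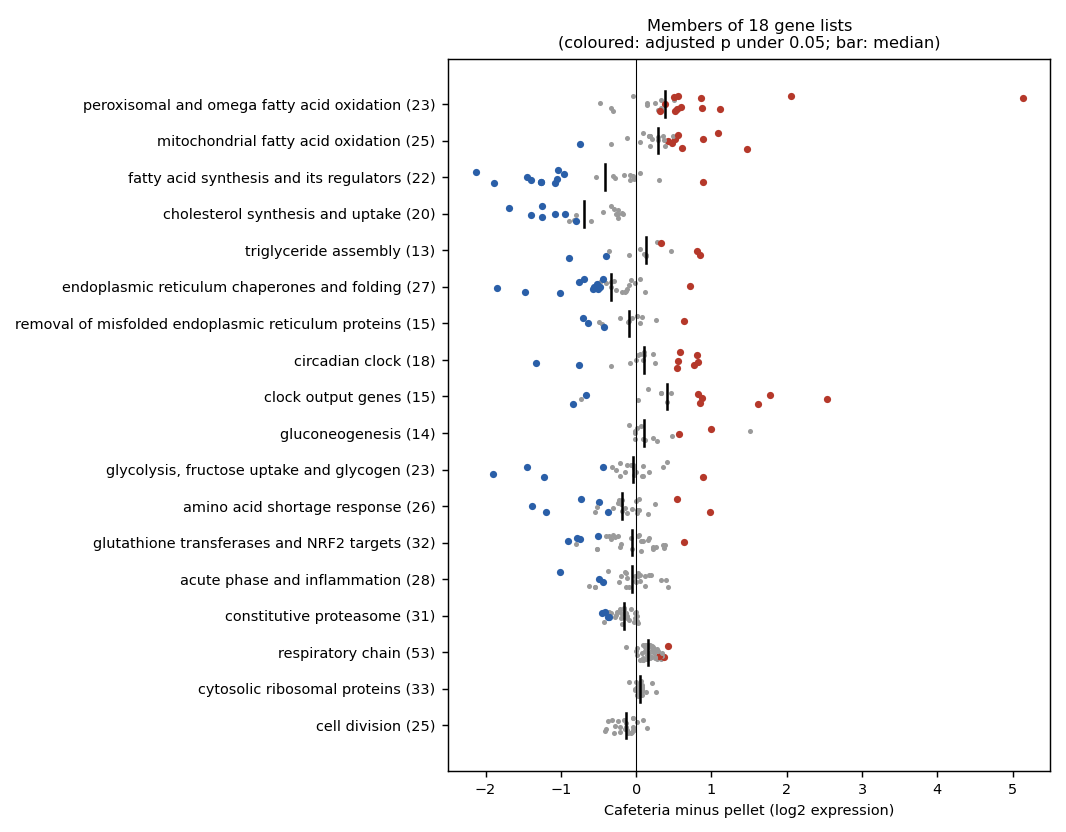
Difference between cafeteria and pellet mice (log2 expression, x axis) of each measured member of 18 gene lists (y axis, number of members in parentheses), coloured where the adjusted p was under 0.05, with a black bar at the list median. All 20 cholesterol genes lie below 0, and the 33 ribosomal proteins lie between -0.09 and 0.27.

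Many chaperones of the endoplasmic reticulum fell. Of 27 measured chaperones and folding enzymes 11 fell and 1 rose, with a median of -0.33 (-0.29 in batch 1, -0.35 in batch 2). Creld2, a stress-induced disulfide isomerase, ran from 4.67 to 5.45 (median 5.14) in the 6 cafeteria mice and from 6.47 to 7.42 (median 7.08) in the 6 pellet mice (-1.84 ± 0.31, adjusted p = 0.000491). Sdf2l1, a partner of the chaperone BiP, had a median of 4.82 in cafeteria mice (lowest 4.24, highest 5.04) and of 6.24 in pellet mice (lowest 5.77, highest 6.70) (-1.48 ± 0.19, adjusted p = 3.28e-05). In both genes the highest cafeteria mouse lay below the lowest pellet mouse. Manf, a secreted stress protein, fell by 1.01 ± 0.26 and Hyou1, an exchange factor of BiP, by 0.77 ± 0.17. Dnajb11, Pdia6, Pdia4, Pdia3 and Calr, which fold glycoproteins and form disulfide bonds, fell by 0.69, 0.57, 0.56, 0.52 and 0.48. A second probe set of Pdia6 was at 0.05 and not called. BiP itself, encoded by Hspa5, was at -0.48 ± 0.16 (adjusted p = 0.113) and Hsp90b1 at -0.33 ± 0.11 (adjusted p = 0.078). The exception was Dnajb9, a cochaperone (0.71 ± 0.21, adjusted p = 0.0489).

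The sensors and transcription factors of the stress response were not called, with Atf6 at -0.02 ± 0.12 and Xbp1 at -0.14 ± 0.14. Among 15 genes that remove misfolded proteins, Edem2, Derl2 and Derl1 fell by 0.71, 0.64 and 0.43, and Herpud1 rose (0.64 ± 0.13, adjusted p = 0.00414). The count of chaperones that fell was 7 without pellet batch 1 replicate 1 or with the beta-actin difference as a covariate, 3 in batch 1 alone, 15 after quantile normalization and 17 after cyclic loess.

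Stretches before the starts of chaperone genes are shown because 11 of these genes fell and the stress element is a defined pair of letter blocks. The element was searched as CCAAT and CCACG separated by 9 bases, on both strands, in the 250 bases before each RefSeq gene start. Of 22 chaperone genes with a promoter entry 8 held it (36.4%), against 17 of 10747 tested genes with an entry (0.158%). It was held by 3 of the 8 genes with an entry that fell (37.5%, Calr, Creld2 and Pdia6). Of the 13 that were not called 5 held it (38.5%, Canx, Dnajc3, Ero1b, Hsp90b1 and Hspa5). These 2 shares were alike, so the 36.4% describes the list and not the change in expression. The stretches are from RefSeq on GRCm38.p6, 5' to 3' on the strand of the gene, with both blocks in capitals.
Creld2, chr15:88819495-88819563, + strand: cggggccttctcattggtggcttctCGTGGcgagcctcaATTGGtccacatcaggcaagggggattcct
Pdia6, chr12:17266466-17266534, + strand: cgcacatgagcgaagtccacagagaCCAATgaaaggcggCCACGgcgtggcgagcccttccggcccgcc
Calr, chr8:84847050-84847118, - strand: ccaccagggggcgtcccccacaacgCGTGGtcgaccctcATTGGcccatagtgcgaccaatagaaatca
Hspa5, chr2:34772000-34772068, + strand: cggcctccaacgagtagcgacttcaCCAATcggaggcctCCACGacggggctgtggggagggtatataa
Creld2 and Calr hold the blocks in the reverse orientation (CGTGG before ATTGG), and Hspa5 has its match nearest to the start, 47 bases away. The element was thus present both in genes that fell and in Hspa5, which was not called.

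Clock genes moved in both directions. Of 18 genes of the clock itself 6 rose and 2 fell, with a median of 0.11. The count of those that rose was 2 with the beta-actin difference as a covariate. Per1, a repressor of the clock that also answers to glucocorticoids, lay between 4.99 and 5.45 under cafeteria food (median 5.18) and between 4.16 and 4.59 on pellets (median 4.34) (0.82 ± 0.14, adjusted p = 0.000757). Per2, Cry1 and Ciart, which act on the same negative limb, rose by 0.77 ± 0.20, 0.59 ± 0.16 and 0.81 ± 0.18, and the PAR factor Tef and its opponent Nfil3 by 0.55 and 0.54. One of the 2 other probe sets of Tef went the other way (-0.33) and was not called.

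The 2 clock genes that fell also repress transcription. Nr1d1, the heme receptor that represses Arntl, ran from 4.30 to 5.30 (median 5.14) in the 6 cafeteria mice and from 5.64 to 6.78 (median 6.29) in the 6 pellet mice (-1.34 ± 0.21, adjusted p = 0.000324), with -1.89 in batch 1 and -0.78 in batch 2. Bhlhe40 was at 6.66 ± 0.51 against 7.42 ± 0.59 (-0.76 ± 0.14, adjusted p = 0.0018). Arntl (0.09 ± 0.08) and Npas2 (0.02 ± 0.11) lay near the filter level, and Dbp (-0.08 ± 0.18) and Nr1d2 (0.06 ± 0.12) were not called.

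Of 15 genes downstream of the clock 6 rose and 2 fell (53.3% called), with a median of 0.41. Usp2, a ubiquitin-specific protease with a strong daily rhythm in liver, had a median of 7.23 in cafeteria mice (lowest 6.69, highest 7.91) and of 4.55 in pellet mice (lowest 3.84, highest 5.46). Its difference of 2.54 ± 0.21 (adjusted p = 9.28e-08) was second to that of Cyp4a14 and nearly the same in both batches, at 2.59 and 2.49. Noct, a phosphatase of NADP(H) with a rhythm of its own, was at 7.18 ± 1.08 against 5.40 ± 0.91 (1.78 ± 0.36, adjusted p = 0.00304) with overlap between the diets, and Alas1, which makes the first intermediate of heme, at 10.35 ± 0.55 against 8.72 ± 0.94 (1.63 ± 0.32, adjusted p = 0.00222). Tspan4 and Wee1, a tetraspanin and a mitotic kinase, rose by 0.82 and 0.88. Avpr1a was 1 of the 2 that fell (-0.84 ± 0.15, adjusted p = 0.00127), and a second probe set fell by 0.75. Cyp7a1, the rate-limiting enzyme of bile acid synthesis, was at 0.15 ± 0.28 and not called.

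The E-box CACGTG, to which the clock's activators bind, is shown for 4 of the genes that rose. It was found in the 250 bases before the start of 5 of 16 clock genes with an entry (31.2%), 4 of them genes that rose (Per1, Cry1, Ciart, Tef), and of 2 of 12 downstream genes (16.7%), against 9.44% of tested genes with an entry (1014 of 10747). The letters read the same on both strands and are in capitals.
Per1, chr11:69098758-69098813, + strand: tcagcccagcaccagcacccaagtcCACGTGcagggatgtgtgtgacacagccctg
Ciart, chr3:95882242-95882297, - strand: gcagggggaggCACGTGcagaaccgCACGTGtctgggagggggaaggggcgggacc
Cry1, chr10:85185084-85185139, - strand: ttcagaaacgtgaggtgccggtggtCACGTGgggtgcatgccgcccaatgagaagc
Tspan4, chr7:141476304-141476359, + strand: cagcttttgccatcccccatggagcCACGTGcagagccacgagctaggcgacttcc
Ciart held 3 matches in its window, of which the stretch covers the pair nearest to the start. Bhlhe41 held a match and was not called, with a difference below its SE of 0.09. Among the downstream genes with an entry, the E-box was held by 1 of 5 that rose (20%, Tspan4) and by 0 of 2 that fell. It was also held by 1 of 5 that were not called (20%, Marchf8, at 0.02 with an adjusted p of 0.987). A second motif, the D-box TTATGTAA, was searched in the same windows. It was found for 1 of 16 clock genes, Per3, which was not called, and for 0 of 12 downstream genes, against 0.633% of tested genes with an entry.

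Genes of glucose metabolism changed at a few steps. Among 14 genes of gluconeogenesis 2 rose (14.3%, against 1.91% of all genes tested). Pck1, which commits oxaloacetate to glucose, lay between 10.34 and 11.13 under cafeteria food (median 10.52) and between 9.01 and 10.10 on pellets (median 9.69) (1.00 ± 0.14, adjusted p = 4.47e-05), and Foxo1, a factor that insulin keeps out of the nucleus, rose by 0.57 ± 0.15. Igfbp1 had a larger difference with a wide error (1.52 ± 0.60, adjusted p = 0.198), and Fbp1 was at 0.07 ± 0.10.

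Of 23 genes of glycolysis, fructose uptake and glycogen 1 rose and 4 fell. Beside Pklr these were Pgd, an NADPH-forming enzyme of the pentose phosphate pathway (-1.23 ± 0.21, adjusted p = 0.000538), the glycogen phosphorylase Pygl (-0.44 ± 0.11, adjusted p = 0.0132) and Ppp1r3c, a subunit that brings protein phosphatase 1 to glycogen. Ppp1r3c ran from 5.02 to 7.32 (median 5.95) in the 6 cafeteria mice and from 7.75 to 8.43 (median 7.97) in the 6 pellet mice, a difference of -1.90 ± 0.35 (adjusted p = 0.00126). Ppp1r3b, the other such subunit of liver, rose (0.89 ± 0.14, adjusted p = 0.000225). The glucose carrier Slc2a2 (-0.06 ± 0.14) and Khk, which starts fructose breakdown (-0.21 ± 0.12), were not called.

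In the breakdown of amino acids 5 of 49 members rose and 4 fell (18.4% called, against 4.8% of all genes tested). The 5 were Aass (lysine), Aadat (tryptophan and lysine), Gpt (alanine), Ivd (leucine) and Aldh4a1 (proline), with differences of 0.41 to 0.68. The largest change of this list lay in sulfur metabolism. Ethe1, the mitochondrial dioxygenase that clears hydrogen sulfide products, had a median of 7.07 in cafeteria mice (lowest 6.70, highest 7.52) and of 8.79 in pellet mice (lowest 8.43, highest 9.29). The diets did not overlap, and the difference of -1.77 ± 0.15 (adjusted p = 1.05e-07) was -1.79 and -1.74 in the 2 batches. Mpst, another enzyme of sulfur metabolism, fell by 0.48 ± 0.11, and Sqor and Suox of the same pathway were at 0.08 ± 0.10 and 0.08 ± 0.15. Gldc of glycine cleavage and Hal, the first enzyme of histidine breakdown, fell by 0.79 ± 0.19 and 0.50 ± 0.14.

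In nitrogen metabolism 1 of 12 genes of the urea cycle (8.33%) rose, Slc25a13 (0.49 ± 0.10), as did 2 of 15 of methionine metabolism (13.3%), Sardh (0.45 ± 0.08) and Ahcy (0.50 ± 0.10), against 1.91% of all genes tested. In the list of genes induced by amino acid shortage 2 of 26 rose and 5 fell. Atf5, a stress factor, lay between 6.39 and 8.13 under cafeteria food (median 7.35) and between 8.24 and 9.12 on pellets (median 8.61) (-1.38 ± 0.19, adjusted p = 5.12e-05), and the tRNA synthetases Tars, Lars and Gars fell by 1.2 ± 0.16, 0.73 ± 0.18 and 0.38 ± 0.11. Trib3 fell by 0.50 ± 0.12 (adjusted p = 0.0108) with its cafeteria mean near the filter level, and a second probe set fell by 0.28. Cebpb rose (0.99 ± 0.20, adjusted p = 0.00381). Asns, a defining target of the response, was near the filter level (0.02 ± 0.08), and Atf4 was at -0.05 ± 0.07.

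Genes of drug metabolism moved in both directions. Of 29 cytochromes P450 and their receptors 4 rose and 3 fell (24.1% called, against 4.8% of all genes tested), and without pellet batch 1 replicate 3 the number that fell was 1. Among those that fell, Cyp2r1 was at 2.98 ± 0.28 against 3.62 ± 0.37 and Cyp2c55 at 3.01 ± 0.20 against 3.54 ± 0.36. Cyp2r1 and Cyp2c55 thus lay near the filter level in both diets. Both nuclear receptors of the list that sense foreign compounds rose, Nr1i3 (CAR) from 7.77 ± 0.18 to 8.67 ± 0.38 (0.90 ± 0.13, adjusted p = 6.32e-05) and Nr1i2 (PXR) from 4.31 ± 0.13 to 4.98 ± 0.32 (0.67 ± 0.12, adjusted p = 0.00117). Cyp2b10, the usual target of CAR, was at -0.15 ± 0.25, Cyp3a11, that of PXR, at 0.08 ± 0.11, and Cyp2c38 and Cyp2c54 rose by 0.62 and 0.55. Among 17 conjugation genes (23.5% called) Sult1d1 (0.78 ± 0.13), Papss2 (0.53 ± 0.11) and Sult1a1 (0.31 ± 0.09) rose and Sult3a1 fell (-1.18 ± 0.28, adjusted p = 0.0135). Cytochromes of 1 subfamily, like glutathione transferases of 1 class, are similar in sequence, and cross-hybridization between their probe sets was not tested.

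Of 32 glutathione transferases and NRF2 targets 1 rose and 4 fell (15.6% called). The mu class members Gstm2, Gstm4 and Gstm6 fell by 0.90 ± 0.21, 0.79 ± 0.16 and 0.74 ± 0.17, with Gstm3 and Gstm7 at -0.79 ± 0.29 and -0.52 ± 0.16 and not called, and Srxn1 fell by 0.51 ± 0.11. Gstt2 of the theta class rose (0.64 ± 0.13, adjusted p = 0.00422). Of 15 genes of heme synthesis and breakdown 2 rose, Alas1 and the glycine carrier Slc25a38 (0.28 ± 0.08), and Ppox fell (-0.37 ± 0.09). A second probe set of Ppox was at 0.12 and not called. In bile acid metabolism 3 of 26 rose and 2 fell. Hsd3b7, an early enzyme of the ring, varied little within each diet (9.64 ± 0.10 against 10.26 ± 0.19, -0.61 ± 0.11, adjusted p = 0.00106), Klb, the coreceptor of the gut hormone that represses Cyp7a1, fell by 0.56 ± 0.14, and the exporters Abcb4 (phospholipid) and Abcg5 (sterol) and the importer Slco1a4 rose by 0.53, 0.58 and 0.62.

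Vitamin A genes included 2 large decreases among 23 members, 2 others rising. Rdh11, a retinal reductase of the endoplasmic reticulum, ran from 5.13 to 6.58 (median 5.98) in the 6 cafeteria mice and from 7.59 to 8.39 (median 7.98) in the 6 pellet mice (-1.98 ± 0.34, adjusted p = 0.00073), and a second probe set fell by 1.89. Stra6l, a receptor for retinol-binding protein, was at 7.27 ± 0.37 against 8.21 ± 0.33 (-0.94 ± 0.16, adjusted p = 0.000516). Aldh1a1 and Rdh9 rose by 0.44 and 0.55, and the Rdh9 call was lost without any 1 of 9 mice. The number of members that rose was 4 without cafeteria batch 2 replicate 3, 0 without cafeteria batch 2 replicate 2 or pellet batch 2 replicate 2, and 1 without any of cafeteria batch 1 replicates 1 to 3 and pellet batch 1 replicates 1 to 3.

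Hormone and transport genes held several of the leading changes. Of 27 genes of hormone handling and the growth axis 2 rose, Igfbp2, which binds insulin-like growth factors (8.83 ± 0.58 against 7.46 ± 0.33, 1.36 ± 0.22, adjusted p = 0.000393), and Dio1, the deiodinase that activates thyroid hormone (1.54 ± 0.42, adjusted p = 0.0339), a call that was lost without any 1 of 6 of the 12 mice. The 2 that fell were Hsd17b2, which inactivates estradiol (-0.97 ± 0.14, adjusted p = 7.82e-05), and the activin subunit Inhba (-0.83 ± 0.11, adjusted p = 4.75e-05). A second probe set of Inhba was at -0.08 and not called. Among 21 genes of metal and water transport, the water channel Aqp8 of the canalicular membrane had a median of 7.62 in cafeteria mice (lowest 7.26, highest 8.12) and of 9.93 in pellet mice (lowest 9.45, highest 10.23) (-2.20 ± 0.20, adjusted p = 2.47e-07). Slc30a10, a manganese exporter, was at 4.10 ± 0.43 against 5.55 ± 0.58 (-1.45 ± 0.14, adjusted p = 5.15e-07). Mt2, a metallothionein, had a wide error (-1.48 ± 0.45, adjusted p = 0.0633). Hamp2, related to the iron hormone hepcidin, and the transferrin receptor Tfrc rose by 0.87 ± 0.24 and 0.85 ± 0.23, and their second probe sets, at 0.09 and 0.14, were not called.

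Of 24 genes of the cytoskeleton and annexins 1 rose and 4 fell. S100a10, the partner of annexin A2, was tight in both diets (7.59 ± 0.11 against 8.83 ± 0.14, -1.23 ± 0.13, adjusted p = 2.26e-06), the tubulins Tubb2a and Tubb5 fell by 1.84 ± 0.31 and 0.71 ± 0.13, and Krt23 rose (1.30 ± 0.19, adjusted p = 8.01e-05) while Krt18 fell (-0.64 ± 0.17, adjusted p = 0.0223). Outside the lists the leading increases were Etfbkmt, which methylates a subunit of the electron transfer flavoprotein (1.90 ± 0.21), the lysosomal carrier Slc15a4 (1.27 ± 0.19), the glycerophosphodiesterase Gde1 (1.39 ± 0.14), the DNA repair nuclease Dclre1a (1.35 ± 0.22), Nampt, which starts NAD salvage (1.23 ± 0.16), Coq10b, a coenzyme Q binding protein (1.23 ± 0.16), the lectin Clec2d (1.23 ± 0.23) and Nrep (1.21 ± 0.31). A second probe set of Etfbkmt differed by 0.25, one of Slc15a4 by 0.01 and one of Dclre1a by -0.10, and none of these was called, while both others of Nampt rose. The leading decreases outside the lists were the factor Klf10 (-1.92 ± 0.26), the tight junction protein Cldn1 (-1.86 ± 0.25), Dntt (-1.83 ± 0.23) and the secreted serpin Serpina12 (-1.40 ± 0.34), whose second probe set was at -0.02. Dntt encodes the terminal transferase known from developing lymphocytes, and it lay between 3.75 and 4.43 under cafeteria food (median 4.01) and between 5.25 and 6.66 on pellets (median 5.80), without overlap.

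In several large groups the count of calls was 0 or depended on the setting. None of 33 ribosomal protein genes and none of 25 cell division genes was called by limma, and their medians were 0.05 and -0.13. At an unadjusted p under 0.05 stood 2 of the ribosomal and 1 of the cell division genes. Of 53 genes of the respiratory chain 51 had a positive difference (median 0.16, from -0.13 to 0.43, against a median of -0.01 over all genes). Of the 53, 3 rose (5.66%, against 1.91% of all genes tested), a count that was 19 after quantile normalization, 16 after cyclic loess, 7 without cafeteria batch 1 replicate 1, cafeteria batch 2 replicate 3 or pellet batch 2 replicate 3 and 1 without any other mouse. Of 31 subunits of the proteasome 28 were negative (median -0.16) and 4 fell (12.9%, against 2.89% of all genes), a count that was 7 after quantile normalization, 9 after cyclic loess, and 0 without pellet batch 1 replicate 1, without pellet batch 2 replicate 3 or with only these 12 mice in the fit. Of 18 heat shock genes 17 had a positive difference (median 0.22), and the cytosolic chaperones Hsph1 and Dnaja1 rose by 1.30 ± 0.25 and 0.50 ± 0.13. Other probe sets of Dnaja1, at 0.06 and 0.27, were not called. The count of 2 was 8 after quantile normalization, 7 after cyclic loess, 5 without the 4 arrays of lowest range and 1 without cafeteria batch 1 replicate 3 or pellet batch 2 replicate 1.

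Of 28 acute phase genes 3 fell (10.7%, against 2.89% of all genes tested). These were Orm2 (-1.01 ± 0.13, adjusted p = 3.28e-05), Apcs (-0.49 ± 0.13, adjusted p = 0.0259) and Orm1 (-0.44 ± 0.12, adjusted p = 0.0306), while Saa1, Hp and Crp were not called (-0.55 ± 0.34, 0.03 ± 0.11 and 0.02 ± 0.10). Orm2 lay near the filter level, at 3.12 ± 0.19 against 4.13 ± 0.40. The count of 3 was 1 without pellet batch 1 replicate 1, pellet batch 1 replicate 3 or pellet batch 2 replicate 3 and with the beta-actin covariate, 6 after quantile normalization and 7 after cyclic loess. Of 34 interferon-induced genes 1 fell, a share of 2.94% that was near the 2.89% of all genes tested. It was Psmb9, an immunoproteasome subunit (-0.65 ± 0.19, adjusted p = 0.047), a call lost without any 1 of 10 mice. Beside these stand the markers of other cells. In the 14 Kupffer cell and macrophage markers 0 were called by limma and 7 had an unadjusted p under 0.05. Their median was -0.42, which was 0.03 in batch 1 and -0.83 in batch 2, and Clec4f and Vsig4, which define Kupffer cells, were at -0.57 ± 0.23 and -0.88 ± 0.38. The mean level of the 14 markers was 6.34 to 6.45 in the cafeteria mice of batch 1, 5.84, 4.83 and 5.19 in those of batch 2, and 5.77 to 6.54 in the pellet mice. Their part in the few acute phase and interferon-induced genes that fell was not tested, and in whole liver fewer cells of a type and less RNA per cell cannot be told apart. Of 10 lymphocyte markers 1 fell, the immunoglobulin chain Ighm (-1.27 ± 0.17, adjusted p = 3.28e-05), at about the same size in both batches (-1.28 and -1.26), and the mean level of the 10 was 3.65 to 3.84 in cafeteria and 3.76 to 3.97 in pellet mice. No member of the lists for sinusoidal endothelial, stellate, bile duct, erythroid, fat, pancreatic, gut or muscle cells or for neutrophils was called by limma or had an unadjusted p under 0.05.

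The cafeteria diet was then set beside the other 2 diets. Fast food against pellet gave 455 calls and chimpanzee diet against pellet 1387, and both comparisons share the pellet mice with this one, so their values are given only side by side. Cyp4a14 was higher than in pellet mice by 5.14 under cafeteria, 6.17 under fast food and 2.93 under the chimpanzee diet, and Ethe1 was lower by similar amounts (-1.77, -1.81 and -1.81). Fasn was at -1.89, -0.95 and -0.49, Pnpla3 at -2.58, -1.17 and -0.92, and Pklr at -1.45, -0.65 and -0.23. The median of the cholesterol list was -0.70, -0.85 and -1.42 in the same order, and that of the clock output list 0.41, 0.32 and 0.81.

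The direct test of cafeteria against fast food mice, in which pellet mice enter only the estimate of the spread, called 1 of 13385 genes (0.00747%) in limma, with 684 at an unadjusted p under 0.05. The gene was Ang, a secreted ribonuclease of the liver. It ran from 9.10 to 9.70 (median 9.34) in cafeteria mice and from 8.02 to 8.81 (median 8.76) in fast food mice, without overlap, a difference of 0.79 ± 0.12 (adjusted p = 0.0229). The call was lost, with none other made, when only the 12 mice of these 2 diets entered the fit (adjusted p = 0.188) or batch was left out (0.332), and Ang was at 0.0198 after cyclic loess. Pellet mice were at 8.49 ± 0.26 and chimpanzee diet mice at 9.12 ± 0.26. Rnase4, the neighbouring ribonuclease gene that shares its promoters with Ang, differed by 0.49 ± 0.13 between cafeteria and fast food mice (adjusted p = 0.408).

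Other genes had wide gaps between cafeteria and fast food mice that did not pass the adjustment on the deposited values. Acnat2, an acyltransferase of the peroxisome, differed by -0.73 (95% interval -1.001 to -0.46, adjusted p = 0.068), the importer Slco1a4 by 0.69 (0.41 to 0.96, adjusted p = 0.115) and Aqp8 by -1.01 (-1.42 to -0.60, adjusted p = 0.115). After quantile normalization Slco1a4 (adjusted p = 0.0311), Acaa1b (0.029) and Ehhadh (0.029) passed, and after cyclic loess these 3 (0.0293, 0.0348 and 0.0348) and Aqp8 (0.0348). For the lipogenic genes the intervals were -1.43 to -0.45 for Fasn (adjusted p = 0.39) and -1.18 to -0.42 for Pklr (adjusted p = 0.267), and for Igfbp2 0.46 to 1.38 (adjusted p = 0.314). Ethe1 differed by 0.04 (-0.27 to 0.36), so a gap beyond 0.36 between the 2 human diets lies outside its interval.

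**Figure D4:**
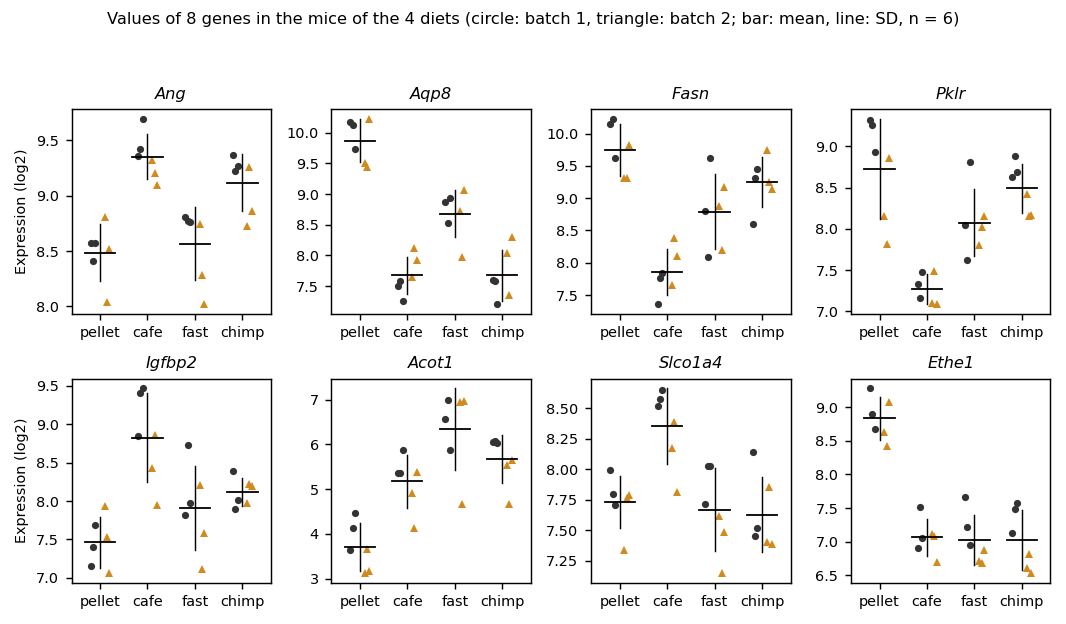
Log2 expression (y axis) of 8 genes in the mice of the pellet, cafeteria (cafe), fast food (fast) and chimpanzee (chimp) diets (x axis), with circles for batch 1, triangles for batch 2, a bar for the mean and a line for the SD of 6 mice. Ang, at 9.35 in cafeteria and 8.57 in fast food mice on average, is the 1 gene called between these diets, and Ethe1 is lower than in pellet mice by a similar amount in all 3 other diets.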

How the data were processed

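RNA of 24 mouse livers was measured on Affymetrix GeneChip mouse genome arrays, 1 per mouse, in 2 batches with equal numbers of every diet. The values deposited by the authors were log2 expression values made with rma, which subtracts background, normalizes quantiles and summarizes probes into probe sets. The deposited values were not alike in distribution, since the 90th percentile of an array ranged from 5.668 to 6.621 over the 24 arrays, and another quantile normalization was among the alternatives. The rma version, and whether the liver arrays were normalized together with the brain arrays of the study (not analysed here), were not stated in the sources used here.

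Of 45101 probe sets 64 were controls. The platform annotation gave 34945 probe sets 1 gene symbol, 932 several and 9160 none, and 34741 matched a current gene entry. Probe sets above 3.147, the median of all non-control values, in at least 6 of the 24 arrays were kept (25544). Where several probe sets named 1 gene, that with the highest mean was taken, which left 13385 genes. Differences were fitted with limma 3.58.1 in R 4.3.3 on all 24 mice, with diet and batch as terms, and p-values were adjusted by the Benjamini-Hochberg method (threshold 0.05). The 12 cafeteria and pellet mice alone, and the two-way analysis of variance of the study's methods with its removal of diet by batch interactions, were alternatives. The latter was an adapted form. It used the level of 3.147 in place of the study's detection p-values, and it left out probe sets without a single gene symbol. Array measures were compared by exact permutation within batches. Arrays give no counting depth, and their number limits the precision.

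Names were drawn from the called genes with the 20 largest increases and the 20 largest decreases, up to 5 called members of each gene list by smallest p, other members where a statement on their role needs them, and the 5 leading named genes each way between cafeteria and fast food. The 20 largest each way had to have the same sign in both batches, and clone names, predicted genes and pseudogenes were left out. The comparison, the 34 pathway lists and the 12 cell type lists were chosen with earlier results of these data known. Of 1022 listed symbols 916 were on the array and 870 were tested. Of 94 further probe sets of the named genes 88 had the same sign. A shared sign includes values near 0 that were not called, such as a second probe set of Inhba (-0.08) and one of Srxn1 (-0.03). Promoters came from RefSeq (GRCm38.p6), which matched 10747 of the genes tested. Whether the same replicate number in 2 diets marked related mice was not known. Deviations from the diet means within a batch correlated at -0.303 to 0.0158 between such mice. With 3 mice per diet and batch these values cannot decide it.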

Additional observations from a re-analysis of the deposited data

Results flagged for a closer look

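In each diet, the 142 named genes were searched for a mouse set apart from the other 5 (gap over range above Dixon's critical value for 6), which gave 11 of 284 gene and diet pairs, where chance flags about 1 in 20. In 6 of them it was cafeteria batch 2 replicate 3, the array of lowest signal range, that lay below the others. Its values were 9.22 for Cpt1a (next lowest 9.73), 9.81 for Dgat2 (next 10.28), 8.13 for Tef (next 8.56), 8.23 for Ivd (next 8.53), 6.52 for Stra6l (next 7.38) and 7.83 for Psmd4 (next 8.31). Cafeteria batch 2 replicate 1 was high for Serpina12, at 6.46 with the others at 4.70 or less, and cafeteria batch 1 replicate 1 was low for Hamp2, at 7.87. Among pellet mice, batch 2 replicate 3 was low for Gpat4 (6.20), batch 1 replicate 1 was high for Agpat2 (8.99) and batch 1 replicate 2 was high for Nr1i3 (8.11). The calls of Dgat2, Agpat2, Hamp2 and Psmd4 were lost without any 1 of 9, 5, 8 and 8 mice, and that of Serpina12 without pellet batch 1 replicate 1 (adjusted p = 0.0566).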

How the results depend on the processing

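Against 643 calls, 1358 were made with the 90th percentile as a covariate, 1144 after cyclic loess, 1079 with array weights, 1067 without the 4 arrays of lowest range, 1057 after quantile normalization, 416 with the beta-actin difference as a covariate, 227 with batch left out and 8 in batch 2 alone. The adapted form of the methods' procedure gave 308 after Benjamini-Hochberg adjustment (882 of 13803 genes at its own unadjusted threshold). Leaving out 1 mouse gave 459 to 844. The share of calls that were higher was 39.8%, and 57.8% without the arrays of lowest range, 52.9% with the 90th percentile covariate. The causes were not tested. The 643 genes kept their sign in each setting that tested all of them by the same probe sets, as did the 638 tested under the stricter filter, and 638 of 643 did with the probe set of largest variance. With a replicate block, whose numbers are not known to pair the mice, 574 were called, 550 of them among the 643. Between cafeteria and fast food the count was 1, and 0 with only those 12 mice, with batch left out or with the replicate block, 4 after quantile normalization and 8 after cyclic loess. Of the 142 named genes 112 stayed past the threshold whichever mouse was left out, and none changed sign. For the other 30 the number of mice whose absence, each alone, ended the call was 1 (Ppox and Serpina12), 2 (Aldh1a1, Cyp2c55, Dnaja1, Foxo1, Nrep and Psmc4), 3 (Abcg5), 4 (Apcs and Krt18), 5 (Agpat2), 6 (Derl1, Dio1 and Orm1), 7 (Tfrc and Vnn1), 8 (Hamp2, Hmgcs1, Psmd4 and Slc25a38), 9 (Dgat2, Ndufa5, Psmd11, Rdh9, Sqle, Sult1a1 and Uqcrc1) or 10 (Psmb9 and Psmc1). The 90th percentile difference between the diets turned to 0.0377 without cafeteria batch 2 replicate 3. The limits are 6 mice per diet, whole tissue, 1 time point, and probe sets with a diet mean within 1 of the filter level for 106 of the 643 genes.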
